A study of Mus musculus with 37 samples.

Results

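The TRBJ2-1, TRBJ2-2, TRBJ2-3 and TRBJ2-4 clonotypes were all entries whose best joining segment was one of these 4, in tables of T cell receptor beta (TRB) rearrangements from 37 mouse lymph nodes. They were 714230 of 1704980 clonotypes, or 41.9%, and held 17460599 reads, 37.05% of all reads. TRBJ2-1 had 219301 clonotypes, TRBJ2-3 had 201201, TRBJ2-4 had 155961 and TRBJ2-2 had 137767. Each library came from the genomic DNA of 1 mouse, so reads count copies of rearranged genes, not of their RNA.

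The study set treatments of MMTV-PyMT females, whose transgene runs from a mammary promoter and gives mammary tumours, against each other at the times labelled d95 and d105. PLX3397 (pexidartinib, an inhibitor of CSF1R, the receptor macrophages depend on) was fed at 40 mg/kg per day from 80 days of age. PTX was injected at 10 mg/kg every 5 days from 85 days, and aPD-1, an antibody against the T cell inhibitory receptor PD-1, was started at 87 days with 1.0 mg, with later doses of 0.5 mg 5 days apart. Control chow stood in for PLX3397 and an isotype antibody for aPD-1, per the labels' protocols. The groups at d105 were all 3 agents with the suffix R (6 mice), all 3 agents with the suffix NR (4), PLX3397 with PTX (PLX+PTX, 6), PTX (2) and WTNT (5), whose genotype label is FVBN. At d95 they were R (5), NR (3), PLX+PTX (3) and PTX (3). R, NR and WTNT are not spelled out in the labels and are used as written. No PLX3397, PTX or aPD-1 is given for WTNT, while all MMTV-PyMT mice were given PTX. Genotype and treatment therefore cannot be told apart in comparisons with WTNT. The tables hold TRB rearrangements alone, so the labelled tissue could not be checked against markers of other cells. They also do not tell how many T cells a library held.

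The beta chain gene is built by joining a variable (TRBV), a diversity (TRBD) and a joining (TRBJ) segment, with bases trimmed from the ends and others inserted between them. The joined stretch encodes the third complementarity-determining region (CDR3), which contacts the peptide, and the J segment supplies its last residues. In the mouse locus the TRBJ2 cluster follows TRBD2, with TRBJ2-1 nearest to it and TRBJ2-2, TRBJ2-3 and TRBJ2-4 next in order. TRBD1 can join either J cluster, whereas TRBD2 lies downstream of TRBJ1 and ordinarily joins TRBJ2.

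The 4 segments end the CDR3 with different letters, which is why their ends are shown first. Each line gives, 5′ to 3′, the most frequent base at each position back from the end of the deposited CDR3 sequences, as far as it was found in at least 50% of clonotypes, with the last 12 bases in capitals.
TRBJ2-1: ctatgctGAGCAGTTCTTC
TRBJ2-2: aacaccgggCAGCTCTACTTT
TRBJ2-3: gtgcagaaACGCTGTATTTT
TRBJ2-4: gtcaaaacACCTTGTACTTT
They encode the closing residues AEQFF, GQLYF, ETLYF and NTLYF. The 12 capital bases closed 91.8% of TRBJ2-1, 98.0% of TRBJ2-2, 94.8% of TRBJ2-3 and 90.9% of TRBJ2-4 clonotypes. The letters were read from clonotypes already called as that segment, so these percents describe how uniform the ends were and do not check the call.

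Clonotypes that departed from these letters held few reads. Clonotypes with a substitution in the J part were 8.04% ± 0.807 (SD, n = 37) of TRBJ2-1, 4.06% ± 0.621 of TRBJ2-2, 5.37% ± 0.667 of TRBJ2-3 and 8.07% ± 0.725 of TRBJ2-4 clonotypes. Their median was 1 read in each segment, against 14, 25, 10 and 15 reads in the other clonotypes. In TRBJ2-4, 3508 clonotypes (2.25%) closed with the letters of TRBJ2-5, acccagtacttt, and held 0.126% of its reads. Such clonotypes weigh on shares counted once and little on reads, and both measures are given below.

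Libraries at d105 held 1090573 to 2831566 reads and those at d95 held 90648 to 917752, so day and sequencing yield cannot be told apart. The ranges of mouse numbers in the labels also differ between the days. The shallowest library, d95 NR replicate 1, had 90648 reads and 982 clonotypes of the 4 segments, against 5069 to 38201 in the others. Any pair of libraries shared 0.407% to 5.11% of their clonotypes of these segments, so no pair of libraries was alike enough to be 1 sample. Reads are PCR copies without molecular identifiers, so intervals and limits cover counting error only. All shares of a library sum to 100%, so a rise in 1 segment lowers the others.

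TRBJ2-1 was the leading member on both direct scales, and the order of the others depended on the scale. In percent of reads the means over 37 libraries were 11.1 ± 0.953 for TRBJ2-1, 9.48 ± 0.766 for TRBJ2-3, 8.99 ± 0.624 for TRBJ2-2 and 7.44 ± 0.602 for TRBJ2-4. This order held in 25 of 37 libraries, and in 10 others TRBJ2-2 stood second. With each clonotype counted once the means were 12.8% ± 0.444, 11.6% ± 0.640, 8.18% ± 0.341 and 9.01% ± 0.388 for TRBJ2-1, TRBJ2-3, TRBJ2-2 and TRBJ2-4. Here TRBJ2-2 was the last of the 4 in 30 of 37 libraries and TRBJ2-1 the first in 36. For comparison, TRBJ2-7 held 26.1% ± 1.85 of reads and TRBJ2-5 12.6% ± 1.54.

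Reads per clonotype also differed. The median clonotype had 10.97 reads ± 3.93 in TRBJ2-1, 26.3 ± 8.34 in TRBJ2-2, 8.80 ± 2.67 in TRBJ2-3 and 13.4 ± 3.59 in TRBJ2-4. TRBJ2-2 lay near TRBJ2-7, at 26.8 ± 7.97. The authors also deposited 2 rescaled counts, made with a fixed factor for each V and J pair. On their normalized clone count the members held 9.57% (TRBJ2-1), 6.27% (TRBJ2-2), 7.89% (TRBJ2-3) and 9.08% (TRBJ2-4), and TRBJ2-4 led in 17 of 37 libraries. These means pool 2 levels, as TRBJ2-4 averaged 10.3% to 10.7% in the d105 groups and 6.21% to 6.90% in the d95 groups. By group means it was the highest of the 4 in each d105 group and lay below TRBJ2-1 and TRBJ2-2 in each d95 group. The factors of member pairs ran from 0.303 to 75.5, and no order of the 4 segments held on every scale.

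**Figure D1:**
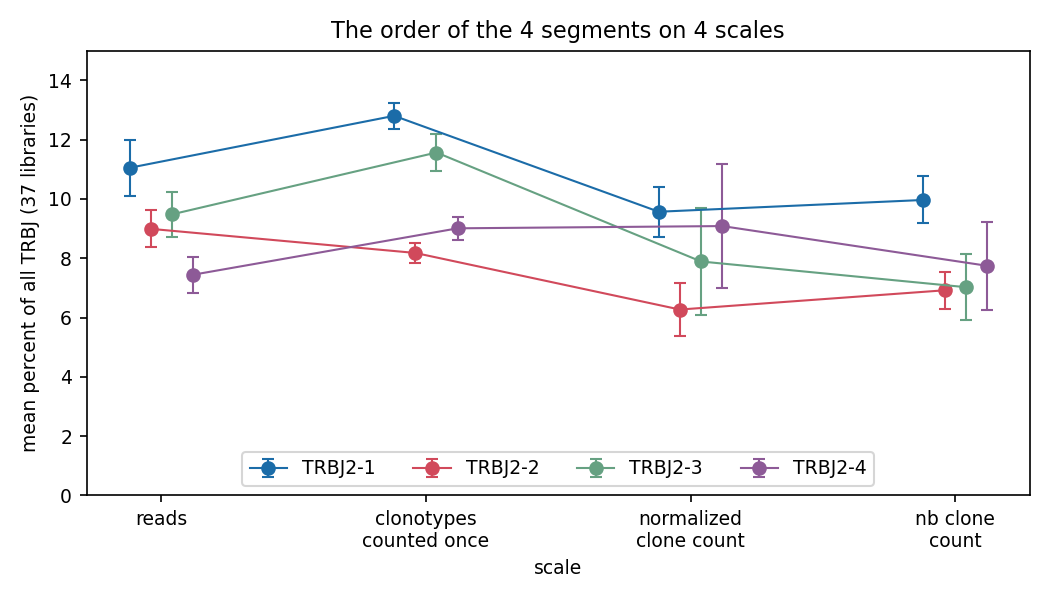
Mean percent of all TRBJ (vertical axis) held by each of the 4 segments on 4 scales (horizontal axis), with the SD over 37 libraries as bars. TRBJ2-1 leads in reads (11.1%) and in clonotypes counted once (12.8%), while TRBJ2-4 moves from last in reads (7.44%) to second on the normalized clone count (9.08%).

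In percent of reads TRBJ2-1 ran from 12.7 ± 2.51 in d95 PLX+PTX and 12.1 ± 0.261 in d95 PTX down to 10.5 ± 0.531 in d105 NR and 10.4 ± 0.947 in d95 NR. The groups between were d105 R (10.95 ± 0.345), d95 R (10.95 ± 0.499), d105 PTX (10.9 ± 0.242), d105 PLX+PTX (10.8 ± 0.221) and WTNT (10.8 ± 0.245). Among neighbours in that order, d95 PTX stood above d105 R by more than the larger SD, and their libraries did not overlap. All other neighbours overlapped. The 3 d95 PLX+PTX libraries lay at 10.5%, 12.2% and 15.4%, and the highest, replicate 2, was the highest of all 37.

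TRBJ2-2 in reads ran from 9.46% ± 0.392 in d95 R and 9.36% ± 0.631 in d95 NR, through d105 NR (9.11 ± 0.784), WTNT (9.07 ± 0.298), d105 R (8.93 ± 0.246), d105 PTX (8.87 ± 0.369) and d105 PLX+PTX (8.84 ± 0.362), to d95 PTX (8.64 ± 0.710) and d95 PLX+PTX (8.39 ± 1.59). No neighbours in this order differed by more than their SD. The lowest library, at 6.65%, was again d95 PLX+PTX replicate 2.

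TRBJ2-3 in reads was highest in d95 PLX+PTX (10.3% ± 1.58) and WTNT (9.98 ± 0.370). It then fell in order through d95 PTX (9.74 ± 0.570), d105 R (9.68 ± 0.181), d105 PLX+PTX (9.53 ± 0.448), d105 NR (9.48 ± 0.396) and d105 PTX (9.46 ± 0.618) to d95 R (8.71 ± 0.708) and d95 NR (8.39 ± 0.613). The step from d105 PTX to d95 R was larger than their SD, though their libraries overlapped. TRBJ2-4 in reads was highest in d105 PTX (8.07% ± 0.508), WTNT (7.90 ± 0.260), d105 PLX+PTX (7.78 ± 0.236) and d105 R (7.70 ± 0.286). Lower were d95 PLX+PTX (7.49 ± 0.747), d105 NR (7.40 ± 0.378), d95 NR (7.11 ± 1.01), d95 PTX (6.82 ± 0.366) and d95 R (6.61 ± 0.152), and each neighbour lay within the larger SD of the next.

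Counted once, the groups of a segment were closer together, and the group means of TRBJ2-2, TRBJ2-3 and TRBJ2-4 parted by day while those of TRBJ2-1 did not. TRBJ2-3 held 12.2% ± 0.354 of clonotypes in d105 PTX, 12.2 ± 0.149 in WTNT, 12.1 ± 0.264 in d105 NR, 11.9 ± 0.282 in d105 R and 11.8 ± 0.261 in d105 PLX+PTX. The d95 groups followed with 10.9 ± 0.393 (NR), 10.8 ± 0.130 (R), 10.8 ± 0.528 (PTX) and 10.8 ± 0.340 (PLX+PTX), and no d95 NR library reached the lowest of d105 PLX+PTX. TRBJ2-4 lay at 9.15% to 9.30% on average in the d105 groups and at 8.29% to 8.83% in the d95 groups. TRBJ2-2 was the reverse, at 7.91% to 8.19% in d105 and 8.26% to 8.69% in d95. TRBJ2-1 had the narrowest span of group means, from 12.4% ± 1.05 in d95 NR to 13.1% ± 0.196 in d105 PTX. Its SD over the 37 libraries (0.444) was above those of TRBJ2-2 (0.341) and TRBJ2-4 (0.388).

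**Figure D2:**
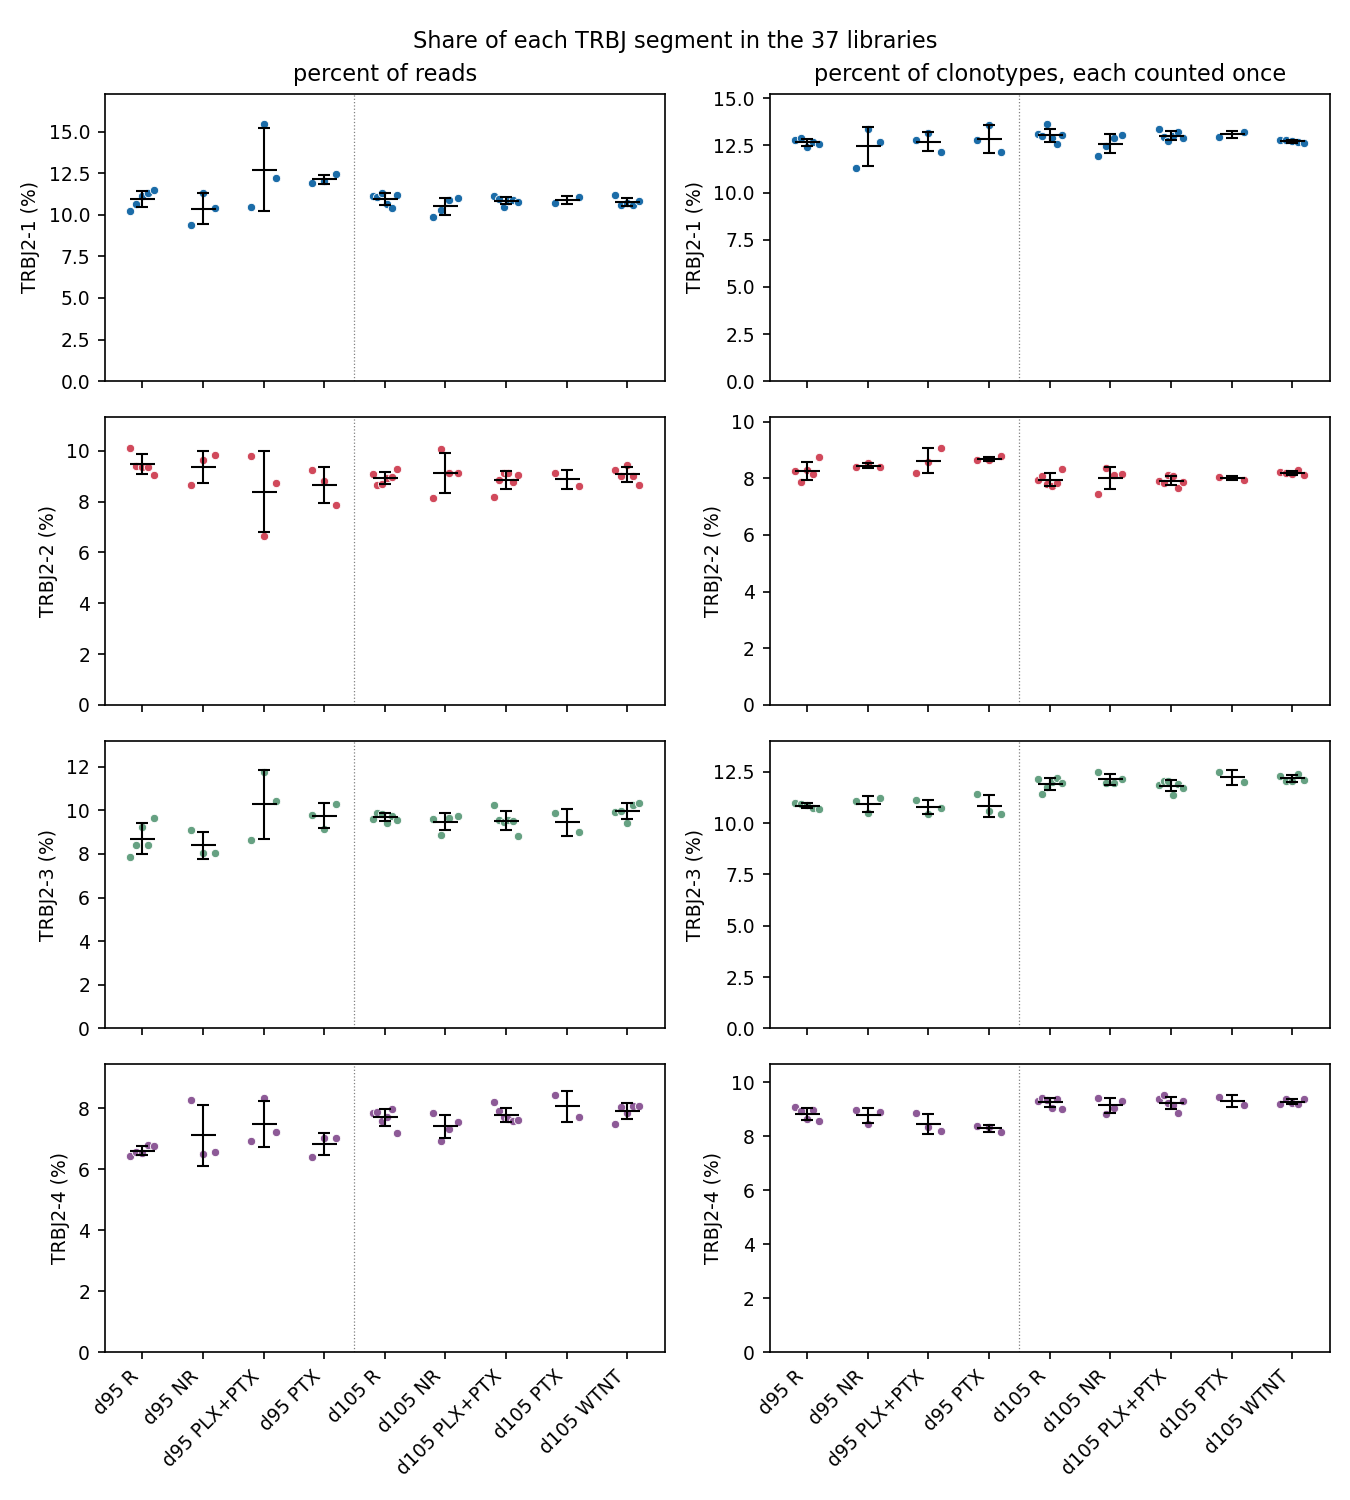
Percent of reads (left) and percent of clonotypes counted once (right) for each segment in the 9 groups, 1 point per library, with the group mean and SD as black bars and a dotted line between d95 and d105. Counted once, all d95 groups of TRBJ2-3 average 10.8% to 10.9% and the d105 groups 11.8% to 12.2%, while d95 PLX+PTX replicate 2 stands high for TRBJ2-1 in reads (15.4%).

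Counted once, TRBJ2-3 and TRBJ2-4 were higher and TRBJ2-2 lower at d105 than at d95 in the MMTV-PyMT mice. TRBJ2-3 held 11.4% to 12.5% (median 11.97%) of clonotypes in the 18 d105 libraries and 10.4% to 11.4% (median 10.8%) in the 14 d95 libraries, and only the edges of these ranges met. Its log2 difference within treatments was 0.15 (SE 0.0152, adjusted p 4.6e-09, limma). TRBJ2-4 rose from a median of 8.59% (8.15 to 9.08) to 9.31% (8.82 to 9.52), a log2 difference of 0.10 (SE 0.0150, adjusted p 9.0e-07, limma). TRBJ2-2 fell from a median of 8.46% (7.86 to 9.07) to 7.94% (7.43 to 8.35), a log2 difference of -0.09 (SE 0.0178, adjusted p 3.4e-05, limma).

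In this comparison 87.5% of all segments tested were called, so 3 of 4 members called is near the background. Each of these 3 calls held under all 7 alternatives and with any 1 of the 32 libraries left out. TRBJ2-1, at medians of 12.7% (d95) and 13.0% (d105), was not called.

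In reads the day comparison gave other calls, against a background of 75% of segments called. TRBJ2-4 rose from a median of 6.77% (6.39 to 8.33) at d95 to 7.71% (6.94 to 8.43) at d105, with overlapping ranges and a log2 difference of 0.15 (SE 0.0343, adjusted p 0.00045, limma). The count models lost this call, with adjusted p of 0.41 in edgeR and 0.76 in DESeq2. TRBJ2-1 had a log2 difference of -0.09 (SE 0.0389, adjusted p 0.047, limma), with medians of 11.3% at d95 and 10.9% at d105. Without d95 PLX+PTX replicate 2 its adjusted p was 0.12, the call held in 11 of 32 such repeats, and on the normalized clone count the sign turned, to 0.20.

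No member's share was called in any of the 7 comparisons of treatments or genotypes. limma called 0 of 28 tests in reads and 0 of 28 counted once, with 3 and 1 at an unadjusted p under 0.05, edgeR called 0 on either scale, and DESeq2 called 2 in reads and 0 counted once. Log2 differences ran from -0.26 to 0.18 in reads (SE 0.0242 to 0.125) and from -0.05 to 0.06 counted once (SE 0.0167 to 0.0583). Among all segments, 8% were called in reads for PLX3397 added to PTX at d105, 4.17% counted once for R minus NR at d105, and 0% in each other comparison.

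The differences nearest to a call were TRBJ2-1 and TRBJ2-3 in reads at d95, when aPD-1 was added to PLX+PTX. TRBJ2-3 lay at 8.63%, 10.4% and 11.8% in the 3 PLX+PTX mice and at 7.88% to 9.64% in R and 8.03% to 9.10% in NR. Its log2 difference was -0.26 (SE 0.0986, adjusted p 0.11, limma), and that of TRBJ2-1 was -0.24 (SE 0.102, adjusted p 0.11). DESeq2 called both, with an adjusted p of 0.022. Without d95 PLX+PTX replicate 2, limma gave an adjusted p of 0.75 for both, and without replicate 1 of that group it gave 0.0098 and 0.0087, the 1 of 14 such repeats that called each.

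Other differences with an unadjusted p under 0.05 were small. TRBJ2-3 in reads was 9.40% to 10.3% in WTNT and 8.84% to 10.3% in the d105 MMTV-PyMT mice, a log2 difference of -0.07 (SE 0.0299, adjusted p 0.51, limma). TRBJ2-1 counted once was 12.6% to 13.6% in d105 R, with a median of 13.0%, and 11.9% to 13.1% in NR, a log2 difference of 0.05 (SE 0.0228, adjusted p 0.14, limma). Both pairs of groups overlapped.

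Across libraries, with the mean of each day removed, each member's share of reads had its own closest segments among 23 compared. For TRBJ2-3 these were TRBV24 (Pearson r = 0.89 over 37 libraries) and TRBJ2-5 (0.81), and for TRBJ2-2 they were TRBJ2-7 (0.81) and TRBV3 (0.81). TRBJ2-1 varied most like TRBV1 (0.79) and TRBV24 (0.77), and TRBJ2-4 like TRBV1 (0.60) and TRBJ2-3 (0.60). Without d95 PLX+PTX replicate 2 these values became 0.84, 0.74, 0.69, 0.64, 0.59, 0.63, 0.40 and 0.44. They describe shares that sum to 100% within a library, and no test was run on them.

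TRBV24 and TRBV1 were among the 3 most used V segments of each of the 4 segments. TRBV26 was scarce in TRBJ2-3 and TRBV5 in TRBJ2-4, each against its share in the other TRBJ, though these pairs held 3910 and 3535 clonotypes. TRBJ2-1 used TRBV1 in 16.9% ± 1.40, TRBV24 in 15.1% ± 1.61 and TRBV5 in 14.1% ± 1.23 of its clonotypes. TRBJ2-2 used TRBV24 in 15.7% ± 1.03, TRBV3 in 15.2% ± 1.31 and TRBV1 in 15.01% ± 0.987. TRBJ2-3 used TRBV24 in 21.5% ± 2.29, TRBV1 in 17.1% ± 1.77 and TRBV2 in 12.4% ± 1.31. TRBJ2-4 used TRBV24 in 19.2% ± 2.07, TRBV1 in 17.8% ± 1.77 and TRBV3 in 14.5% ± 3.03.

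A preference was computed as the log2 ratio of a V segment's share within a J segment to its share within all other TRBJ of the same library. Of 48 member pairs tested with limma, 23 lay above and 20 below the expectation of no preference. Over all 131 pairs these calls were 45% above and 46.6% below, so the members' counts were near the background. The median absolute log2 preference was 0.22 in member pairs and 0.29 in all pairs.

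Among member pairs, TRBV26 with TRBJ2-3 and TRBV5 with TRBJ2-4 were the gaps. TRBV26 made up 1.49% ± 1.06 of TRBJ2-3 clonotypes (0 to 3.44%) and 5.16% ± 0.472 of the clonotypes of all other TRBJ (4.18 to 6.47%). It was lower in TRBJ2-3 in 37 of 37 libraries, with a log2 preference of -2.55 (SE 0.0688, adjusted p 2.5e-25, limma). TRBV5 made up 1.82% ± 1.09 of TRBJ2-4 clonotypes (0 to 3.42%) against 11.5% ± 0.634 elsewhere (10.2 to 12.9%), also lower in 37 of 37, with -3.33 (SE 0.124, adjusted p 1.2e-21, limma). In both pairs the ranges of the 2 shares did not overlap. On the normalized clone count the first was weaker, at -0.78 (SE 0.229, adjusted p 0.0022, limma), and TRBV26 lay above the expectation in TRBJ2-3 in 22 of 37 libraries. TRBV5 TRBJ2-4 was then at -2.34 (SE 0.268), below it in all 37. In reads they were at -5.66 and -6.24.

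These pairs were also thinly read. A TRBV26 TRBJ2-3 clonotype had 5.94 reads on average and a TRBV5 TRBJ2-4 clonotype 2.59, while the same V segments had 52.8 (TRBV26) and 25.4 (TRBV5) reads per clonotype with TRBJ2-2. The authors' factor for TRBV26 TRBJ2-3 was 75.5, the highest of all member pairs. Outside the members, TRBV5 TRBJ2-5 had a factor of 63.1, so a high factor was not particular to them. The preference of TRBV5 for TRBJ2-5 is not given here. The part of reads per clonotype in these gaps was not tested.

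Smaller preferences pointed both ways. Above expectation were TRBV30 (0.73, in 37 of 37 libraries) and TRBV5 (0.47, in 37) with TRBJ2-1, and TRBV26 (0.27, in 34) and TRBV5 (0.26, in 37) with TRBJ2-2. So were TRBV30 (0.49, in 34) and TRBV24 (0.41, in 37) with TRBJ2-3, and TRBV23 (0.36, in 35) and TRBV2 (0.29, in 37) with TRBJ2-4. Below it were TRBV26 (-0.30) and TRBV4 (-0.22) with TRBJ2-1, TRBV20 (-1.15) and TRBV2 (-0.50) with TRBJ2-2, TRBV3 with TRBJ2-3 (-0.38) and TRBV26 with TRBJ2-4 (-0.35). On the normalized clone count the sign turned for TRBV5 TRBJ2-1, TRBV20 TRBJ2-2, TRBV3 TRBJ2-3, TRBV24 TRBJ2-3 and TRBV26 TRBJ2-4, and in reads for TRBV5 TRBJ2-1.

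**Figure D3:**
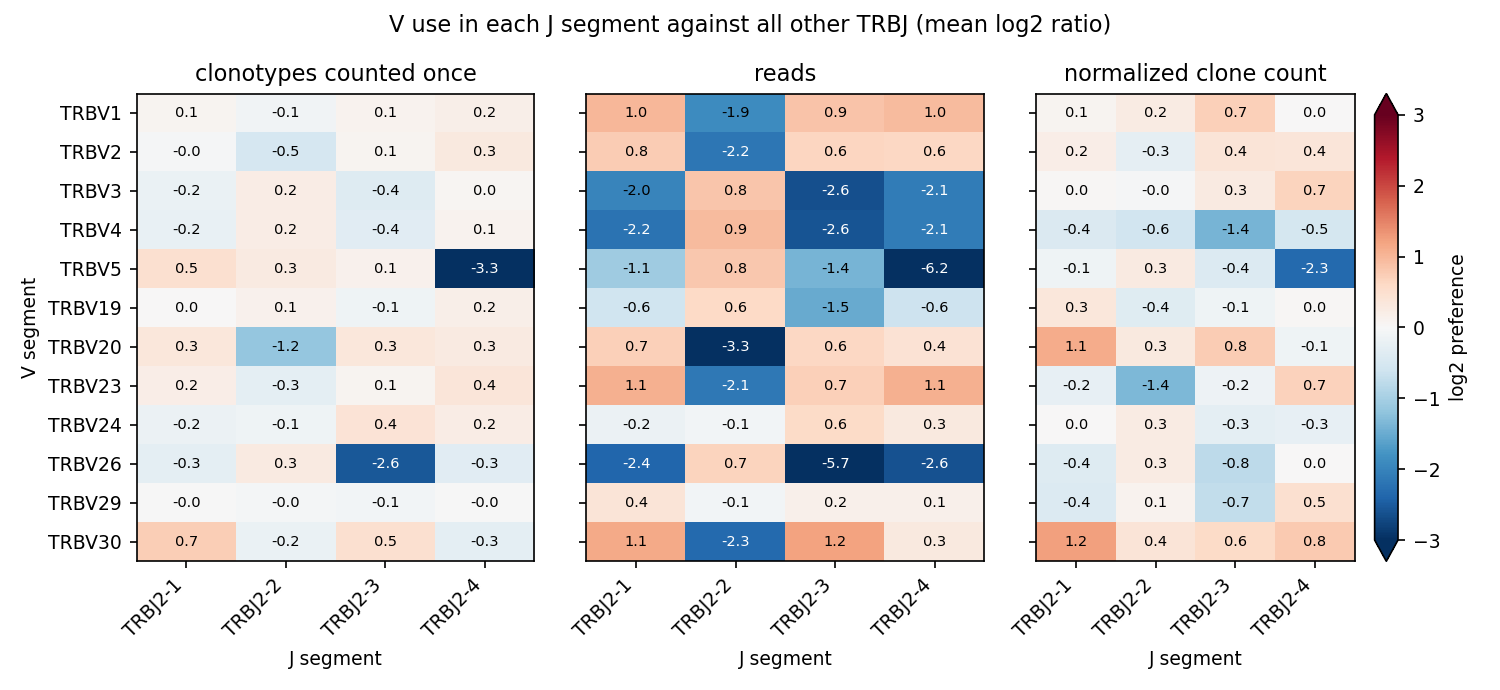
Mean log2 preference of 12 V segments (rows) in each J segment (columns) over 37 libraries, for clonotypes counted once, reads and the normalized clone count; blue is below and red above the expectation, and colours saturate at the ends of the bar. TRBV5 with TRBJ2-4 (-3.33) and TRBV26 with TRBJ2-3 (-2.55) are the deep blue cells counted once, and TRBV5 with TRBJ2-1 is red counted once (0.47) and blue in reads (-1.07).

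The shares of both gap pairs are given by day as a description. TRBV26 TRBJ2-3 made up 0.118% to 0.430% (median 0.285%) of all clonotypes in the 18 d105 MMTV-PyMT libraries and 0 to 0.0478% (median 0.0339%) in the 14 d95 libraries. The ranges did not overlap. TRBV5 TRBJ2-4 lay at 0.175% to 0.322% (median 0.256%) at d105 and at 0 to 0.0905% (median 0.0481%) at d95, again with no overlap. Both pairs reached the mean share of 0.1% that a test required only through d105. No fold or p is given for them, and their direction between the days is not taken as a result. The 5 WTNT libraries, also of d105, held 0.193% to 0.2999% for TRBV26 TRBJ2-3 and 0.198% to 0.235% for TRBV5 TRBJ2-4.

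Read depth moved with day in the same direction. After every library was thinned to 200000 reads, which left out d95 NR replicate 1, TRBV26 TRBJ2-3 held 0.0752% to 0.333% at d105 and 0.00877% to 0.0497% at d95. These ranges did not overlap either. TRBV5 TRBJ2-4 thinned to 0.0526% to 0.150% at d105 and 0 to 0.0349% at d95.

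**Figure D4:**
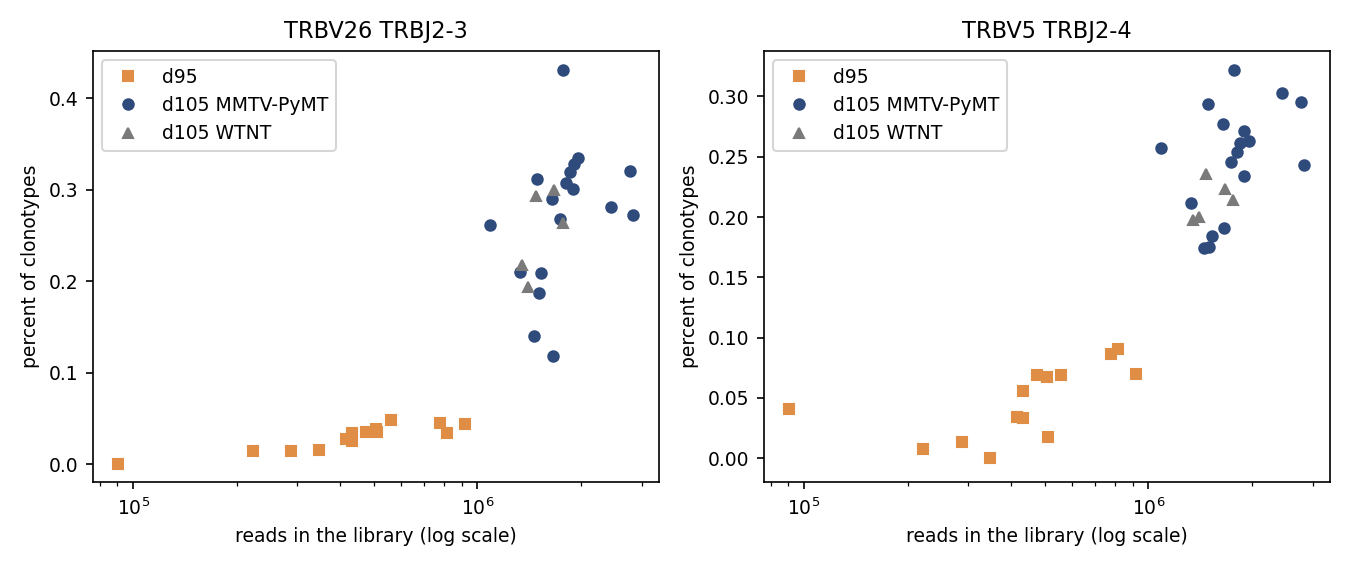
Percent of clonotypes in TRBV26 TRBJ2-3 (left) and TRBV5 TRBJ2-4 (right) against the reads of the library (log scale), 1 point per library. All d95 libraries lie at or under 0.0478% and 0.0905%, and all d105 libraries, WTNT included, at or above 0.118% and 0.175%. Both pairs passed the filter on low shares only through d105, so this direction is not taken as a result.

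Over all member pairs, 29 of 43 were called between the days, 17 higher and 12 lower at d105, where 61.5% of all 117 pairs were called. Of these, 4 (the gap pairs and TRBV23 with TRBJ2-3 and TRBJ2-4) reached 0.1% only at d105, so their direction was set by the filter. The other 25 reached it on both days, 13 of them higher and 12 lower. TRBJ2-2 had 0 higher and 3 lower of 9 tested. Of the pairs past 0.1% on both days, the furthest apart was TRBV3 TRBJ2-3 (log2 difference 1.02, SE 0.124, adjusted p 1.1e-07, limma), followed by TRBV26 TRBJ2-4 (0.99) and TRBV20 TRBJ2-4 (0.83). TRBV2 TRBJ2-4 was lower, by -0.23 (SE 0.0405, adjusted p 3.9e-05, limma), but in percent of reads it was higher, by 0.20. With thinned libraries, where 113 pairs of all J segments were tested, 19 member pairs were called. The matching share over all pairs is not given for thinned libraries, for pairs past 0.1% on both days or for TRBJ2-2 alone. Those counts are therefore not read against a background.

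Among the treatment comparisons, 1 of 289 tests of member pairs was called, TRBV20 TRBJ2-1 between R and NR at d105, with 25 at an unadjusted p under 0.05. It made up 0.164%, 0.189%, 0.193%, 0.205%, 0.213% and 0.218% of clonotypes in the 6 R mice and 0.229%, 0.260%, 0.265% and 0.270% in the 4 NR mice. All R libraries lay below all NR libraries, with a log2 difference of -0.36 (SE 0.0757, adjusted p 0.012, limma), and 0.847% of all 118 pairs were called. WTNT held 0.230% to 0.294%. Within the range of mouse numbers that held 4 R and all 4 NR mice, the difference was -0.32.

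This pair rested on 87 to 212 clonotypes per library. In percent of reads the log2 difference was -0.60 (adjusted p 0.27, limma) and with thinned libraries -0.42 (adjusted p 0.24), so it kept its direction and lost the call. Without d105 NR replicate 3 the adjusted p was 0.082. At d95, R libraries held 0.185% ± 0.0561 and NR libraries 0.247% ± 0.0458, with overlapping values and no call. No pair of any J segment was called in the other 6 treatment comparisons (0%).

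CDR3 length differed between the 4 segments in every library or nearly so. TRBJ2-2 gave the longest CDR3, 14.8 amino acids ± 0.0564 on average over libraries, then TRBJ2-3 (14.6 ± 0.0561), TRBJ2-1 (14.2 ± 0.0471) and TRBJ2-4 (14.2 ± 0.0726). All 6 pairs of segments differed in a sign-flip permutation test within libraries (100000 resamples, 2-sided, adjusted p 1e-05, the smallest they can give). TRBJ2-2 exceeded TRBJ2-4 by 0.604 residues in 37 of 37 libraries, and TRBJ2-1 exceeded TRBJ2-4 by 0.0887 in 36. Weighted by reads, TRBJ2-2 and TRBJ2-3 differed least, by 0.0418 residues, with TRBJ2-2 longer in 27 of 37.

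The most frequent length was 14 residues in TRBJ2-1 (30.5% ± 0.954 of clonotypes) and TRBJ2-4 (29.3% ± 1.26), and 15 residues in TRBJ2-2 (32.3% ± 1.62) and TRBJ2-3 (32.6% ± 0.832). At 12 residues TRBJ2-4 held 8.82% ± 0.793, against 5.44% ± 0.600 in TRBJ2-1, and at 16 residues TRBJ2-2 held 19.8% ± 1.17 and TRBJ2-4 11.8% ± 1.16.

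**Figure D5:**
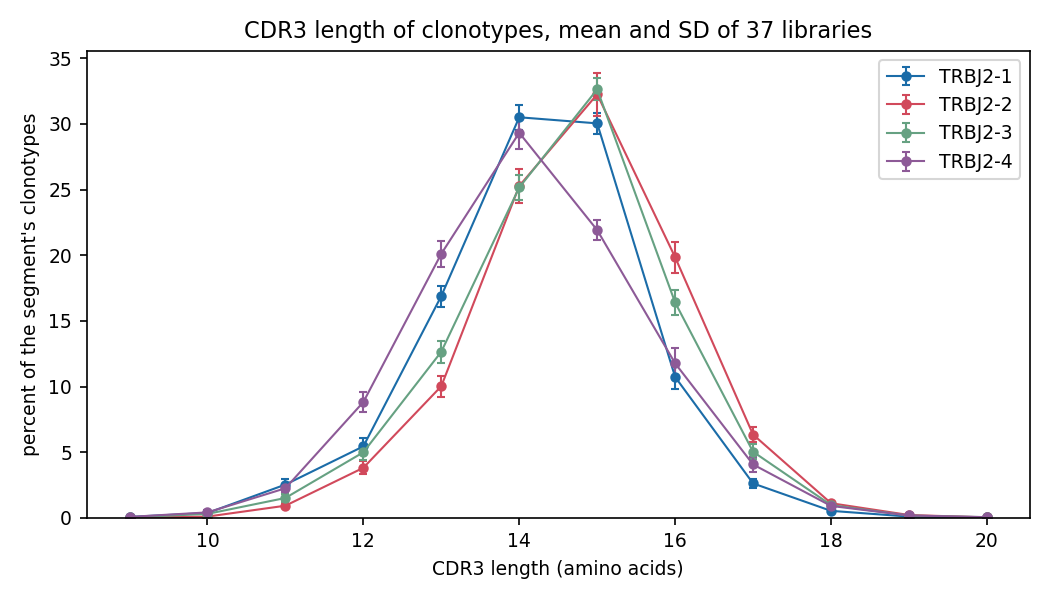
Percent of a segment's clonotypes (vertical axis) at each CDR3 length in amino acids (horizontal axis), mean and SD of 37 libraries. TRBJ2-1 and TRBJ2-4 peak at 14 residues, TRBJ2-2 and TRBJ2-3 at 15.

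The length of the match to the J ends was also counted. Back to the first mismatch with the ends shown above, matches averaged 19.6 bases ± 0.0529 in TRBJ2-2 and 17.9 ± 0.181 in TRBJ2-3. They averaged 17.1 ± 0.122 in TRBJ2-4 and 16.5 ± 0.119 in TRBJ2-1. Those ends were themselves 21 (TRBJ2-2), 20 (TRBJ2-3 and TRBJ2-4) and 19 (TRBJ2-1) bases long, so each count had its own ceiling. A substitution also stopped the count, so this order does not measure trimming and no p is given. The deposited alignments gave no trimming of J in 39.2% ± 1.18 of TRBJ2-3, 32.2% ± 1.47 of TRBJ2-4, 25.1% ± 1.32 of TRBJ2-2 and 10.0% ± 0.511 of TRBJ2-1 clonotypes. Inserted bases numbered 3.77 ± 0.144 in TRBJ2-3, 3.61 ± 0.0943 in TRBJ2-4, 3.47 ± 0.0752 in TRBJ2-1 and 3.29 ± 0.0810 in TRBJ2-2. Where no D was called, the whole stretch between V and J counted as inserted, remnants of D included. No D was called in 16.5% (TRBJ2-1) to 23.6% (TRBJ2-2) of clonotypes, so this order does not measure insertion alone.

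TRBD2 was called in 45.1% ± 1.73 of TRBJ2-1, 44.8% ± 2.34 of TRBJ2-4, 42.4% ± 2.21 of TRBJ2-3 and 34.5% ± 1.56 of TRBJ2-2 clonotypes, against 6.61% ± 0.886 of TRBJ1 clonotypes. TRBD1 was called in 38.5%, 31.9%, 36.7% and 41.8% of them. By these deposited calls TRBJ2-2 was the member in which TRBD1 outnumbered TRBD2, in 37 of 37 libraries, while TRBD2 led in 37 (TRBJ2-1), 35 (TRBJ2-3) and 36 (TRBJ2-4). The 2 D segments are short and alike after trimming, so a call is uncertain. The letters GGGACTG, of TRBD2, stood on the coding strand of 9.56% of TRBJ2-1, 8.61% of TRBJ2-4, 8.18% of TRBJ2-3 and 6.03% of TRBJ2-2 CDR3 sequences, against 0.747% for TRBJ1. The letters GGGACAG, of TRBD1, stood in 10.3%, 6.59%, 9.62% and 9.95% of the same 4, and in 17.1% for TRBJ1. By these letters TRBD1 led on average in TRBJ2-1, TRBJ2-2 and TRBJ2-3 and TRBD2 in TRBJ2-4, an order that differs from the calls in TRBJ2-1 and TRBJ2-3.

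Between the days the mean length rose in all 4 segments when each clonotype counted once. It rose by 0.0672 residues in TRBJ2-1 (14.2 ± 0.0369 to 14.3 ± 0.0306), by 0.0794 in TRBJ2-2, by 0.0795 in TRBJ2-3 and by 0.125 in TRBJ2-4 (14.1 ± 0.0635 to 14.2 ± 0.0311). Adjusted p were 0.00016, 0.00088, 0.00021 and 0.00016 (permutation within treatments, 32 tests in the family). With libraries thinned to 200000 reads none was called, at 0.00732, 0.00493, -0.00081 and 0.0202 residues, and weighted by reads all 4 turned in sign.

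Treatments gave no called difference in length. Of 28 exact permutation tests 0 were called after adjustment and 6 had an unadjusted p under 0.05, with differences from -0.0729 to 0.0893 residues and a lowest adjusted p of 0.086. In d105 R mice TRBJ2-1 averaged 14.29 ± 0.0204 residues and in NR mice 14.25 ± 0.0132, a difference of 0.0388 (exact permutation p 0.024, adjusted p 0.086). TRBJ2-2 was shorter by 0.0729 in R than in NR at d95 (exact permutation p 0.018, adjusted p 0.086). That p is the smallest the exact test can give for these group sizes. For PLX3397 at d95, with 3 mice against 3, it cannot fall under 0.05, so no call was possible there. Other small groups also limit how low an exact p can fall, so the lack of calls does not show equal lengths.

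Public members, here V, J and amino acid combinations found in at least 19 of 37 libraries, were few. They numbered 349 of 114928 for TRBJ2-3, 288 of 133390 for TRBJ2-1, 193 of 98376 for TRBJ2-4 and 157 of 82841 for TRBJ2-2, out of 2554 in all segments. Most combinations, 79.6% to 82.7% in the 4 segments, occurred in 1 library. None occurred in all 37, and the most widespread occurred in 36, or 33 for TRBJ2-2.

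Public members held fewer inserted bases than the others, by the count that takes the whole V to J stretch where no D was called. In TRBJ2-1 public members had 1.21 inserted bases ± 0.107 and the others 3.60 ± 0.0849, and in TRBJ2-3 they had 1.72 ± 0.182 and 3.93 ± 0.134. TRBJ2-2 (1.64 against 3.37) and TRBJ2-4 (1.64 against 3.73) were alike, and in all 4 segments the public members were lower in 37 of 37 libraries. They were also shorter, by mean length 13.7 against 14.2 residues in TRBJ2-4 and 14.2 against 14.8 in TRBJ2-2. Each was encoded by 1.53 to 1.65 nucleotide forms per library on average, against 1.05 to 1.06 for other combinations. The public class is chosen on presence, so these values describe it and were not tested.

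A most widespread member of each segment is shown to give the sequences that recur between mice. Of 2 members tied at 36 libraries in TRBJ2-1, 2 at 36 in TRBJ2-3 and 2 at 33 in TRBJ2-2, the one with the higher mean percent of reads is shown. The counts of libraries are for the amino acid combination, and each line gives its most widespread nucleotide form, with the last 12 bases in capitals. These forms themselves occurred in 30 (TRBJ2-1), 17 (TRBJ2-2), 17 (TRBJ2-3) and 26 (TRBJ2-4) libraries.
TRBV1 TRBJ2-1, 36 libraries: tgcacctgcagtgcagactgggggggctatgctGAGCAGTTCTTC
TRBV1 TRBJ2-2 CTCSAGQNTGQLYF, 33 libraries: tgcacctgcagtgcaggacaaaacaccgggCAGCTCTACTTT
TRBV1 TRBJ2-3 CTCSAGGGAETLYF, 36 libraries: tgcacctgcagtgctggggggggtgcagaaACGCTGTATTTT
TRBV2 TRBJ2-4, 36 libraries: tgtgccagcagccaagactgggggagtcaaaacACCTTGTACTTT
TRBV1 was the leading V segment of public members, with 77 of 288 in TRBJ2-1 (26.7%), 40 of 157 in TRBJ2-2 (25.5%), 95 of 349 in TRBJ2-3 (27.2%) and 68 of 193 in TRBJ2-4 (35.2%). It made up 13.1% to 15.2% of all combinations of these segments. TRBV5 supplied 71 public members of TRBJ2-1, 38 of TRBJ2-2 and 60 of TRBJ2-3, where TRBV24 supplied 86. TRBV1, TRBV24, TRBV2 and TRBV3 led in TRBJ2-4, with 68, 37, 33 and 32.

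Even these widespread members were small. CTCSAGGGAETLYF held 0.0165% ± 0.0114 of reads over 37 libraries, with 0.00828% ± 0.00821 in d95 R, 0.0304% ± 0.0185 in d95 PLX+PTX and 0.0120% to 0.0212% on average in the d105 groups. It had 51 nucleotide forms, and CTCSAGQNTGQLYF had 21. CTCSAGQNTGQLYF held 0.00348% ± 0.00273 of reads, at most 0.0112% in d105 PLX+PTX replicate 6. The largest member of any library was a TRBV1 TRBJ2-1 clonotype of 14 residues found in 34 libraries, with 738 reads of d95 PLX+PTX replicate 2, 0.213% of reads (95% Wilson interval 0.198 to 0.229). The largest of TRBJ2-4, TRBV24 with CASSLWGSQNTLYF, held 0.182% of d105 PLX+PTX replicate 1 (0.177 to 0.187) and occurred in 25 libraries. The largest of TRBJ2-3, TRBV24 with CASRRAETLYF, held 0.160% of d105 R replicate 4 (0.154 to 0.166) and occurred in 2. For TRBJ2-2 it was a TRBV19 clonotype of 17 residues with 131 reads in d95 NR replicate 1, 0.145% (0.122 to 0.171), seen in 1 library.

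TRBJ2-3 was the most public of the 4 segments. Of its combinations in a library 5.28% ± 1.73 were public, against 3.90% ± 1.30 in TRBJ2-1, 3.86% ± 1.49 in TRBJ2-4 and 3.14% ± 0.831 in TRBJ2-2. It exceeded TRBJ2-1 and TRBJ2-4 in 36 of 37 libraries and TRBJ2-2 in 37 (sign-flip permutation test, adjusted p 1.2e-05). TRBJ2-1 and TRBJ2-4 were not told apart (difference 0.0443 percentage points, SD 0.384, adjusted p 0.49). When public meant at least 30 libraries their order turned and was called (-0.0979, SD 0.265, sign-flip permutation test, adjusted p 0.013), with TRBJ2-4 higher in 36 of 37 libraries.

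The reads held by public members were a smaller part of 2 segments at d105. In TRBJ2-4 they were 7.22% to 11.03% (median 8.41%) of the segment's reads at d105 and 9.08% to 12.7% (median 10.8%) at d95, with overlap, a difference of -2.44 percentage points (permutation within treatments, adjusted p 0.00016). In TRBJ2-1 they were 6.70% to 8.19% (median 7.71%) and 7.57% to 11.5% (median 9.28%), a difference of -1.57 (adjusted p 0.00016). TRBJ2-3, at 10.8% ± 0.563 and 12.5% ± 2.81, had a difference of -1.66 that was not called (adjusted p 0.17). TRBJ2-2 stood at 5.02% ± 0.457 and 5.15% ± 0.814. As a percent of combinations counted once all 4 were lower at d105, and depth differs between the days.

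No treatment comparison of public reads was called in 28 exact permutation tests, with 2 at an unadjusted p under 0.05. In TRBJ2-3 public members held 11.003% ± 0.525 of reads in the 10 d105 mice with aPD-1 and 10.3% ± 0.301 in the 6 PLX+PTX mice (exact permutation p 0.010, adjusted p 0.11). In TRBJ2-4 at d95 they held 10.4% ± 0.722 with aPD-1 and 11.6% ± 0.514 in PLX+PTX (exact permutation p 0.024, adjusted p 0.17). As for length, no call was possible for PLX3397 at d95, with 3 mice against 3, and other small groups limit how low p can fall.

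Single clonotypes present in 50% or more of the libraries compared, here called shared, gave 1 call in 9352 tests of members over the treatments, with 615 at an unadjusted p under 0.05. It was TRBV1 TRBJ2-4 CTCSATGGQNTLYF, lower with aPD-1 than in PLX+PTX at d105. The form found in most libraries, 5, of its 18 nucleotide forms is given with the last 12 bases in capitals.
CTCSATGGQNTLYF: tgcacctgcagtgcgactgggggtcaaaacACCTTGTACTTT

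It was found in all 6 PLX+PTX mice, at 19.8 to 113 CPM (reads per 1e+06 reads; median 72.8). In R it was found in 3 of 6, at 18.9, 26.0 and 35.9 CPM, and in NR in 0 of 4, which allows up to 1.69 to 2.06 CPM in a library (3 reads). The log2 difference was -2.41 on the scale of log2(CPM + 10) (SE 0.388, adjusted p 0.015, limma), where 0.0191% of all shared clonotypes were called. Among the d105 libraries other than PLX+PTX, the clonotype fell short of the presence required of shared clonotypes. It passed that filter only through the group in which it was high, so its direction depends on the filter and is not taken as a result. Of the 10 R and NR libraries, 8 lay below the lowest PLX+PTX library and 2 above it.

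Its other groups did not follow the treatments in 1 direction. It was found in 0 of 2 PTX mice and in 5 of 5 WTNT mice, at 25.2 to 76.9 CPM. At d95 it was found in 1 of 3 PLX+PTX mice, with 1 read, and in 4 of 8 mice with aPD-1, at 12.6 to 115 CPM, a log2 difference of 1.20 (adjusted p 0.87, limma). Within the 2 ranges of mouse numbers the d105 difference was -1.97 (2 against 4 mice) and -2.65 (8 against 2). With a pseudocount of 1 the difference was -4.78 (adjusted p 0.056, limma) and on the normalized clone count -1.28 (adjusted p 0.42), both in the same direction with no call. The call was also lost without d105 PLX+PTX replicate 3 (0.091), and held in 21 of 23 repeats with 1 library left out.

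Between the days 54 of 912 shared member clonotypes were called, all of them higher at d105, where 6.43% of all 2394 were called. Of the 54, 44 were found in at least 50% of libraries at d105 but not at d95, where libraries were shallower, so they passed the filter through d105 and their direction is not a result. The other 10 passed it on both days, as did 321 of the 912. The share called among all shared clonotypes past the filter on both days is not given, so these 10 are not read against a background.

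TRBV3 TRBJ2-1 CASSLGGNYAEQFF was 1 of those 10. It was found in all 18 d105 MMTV-PyMT mice, at 7.32 to 94.7 CPM, and in 7 of 14 d95 mice, at 3.27 to 28.6 CPM, with overlapping ranges. Its log2 difference was 1.42 on the scale of log2(CPM + 10) (SE 0.273, adjusted p 0.0034, limma). A d95 library with no read allows up to 3.27 to 33.1 CPM, against 1.06 to 2.75 at d105, and the median log2 difference of all shared clonotypes was 0.42.

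Of those that passed through d105 alone, TRBV2 TRBJ2-4 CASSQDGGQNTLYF was found in 17 of 18 d105 MMTV-PyMT mice, at 19.5 to 68.6 CPM, with 0 reads in d105 PTX replicate 2, and in 4 of 5 WTNT mice. At d95 it was found in 3 of 14 mice, at 47.8, 34.6 and 1.09 CPM, so the higher 2 lay within the d105 range. TRBV20 TRBJ2-1 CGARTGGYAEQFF was found in 16 of 18 d105 MMTV-PyMT mice and in 1 of 14 d95 mice.

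In the other treatment comparisons, 0.207% of shared clonotypes were called for R minus NR and 0.104% for PLX3397 added to PTX at d95, none of them members, and 0% elsewhere.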

How the data were processed

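The members, lists and tests were chosen with earlier results of these data known. The clone counts were deposited by the authors as whole reads per clonotype. Their 2 rescaled columns, also as deposited by the authors, are scores: each count times a factor per V and J pair, rounded. The sources used here name no aligner, genome build or origin of the factors. Shares were tested as log2(percent + 0.01) with limma 3.58.1 in R 4.3.3, over segments or pairs of at least 0.1%, in separate fits for d105 (23 libraries) and d95 (14), and across days within treatments (32 MMTV-PyMT libraries). Clonotypes merged by V, J and amino acid sequence were tested as log2(CPM + 10). All p were adjusted by Benjamini-Hochberg over every feature tested, with 0.05 as the threshold. CDR3 length and public reads were tested by exact permutation of the absolute difference of group means, 2-sided (100000 resamples for days). edgeR 4.0.16 and DESeq2 1.42.0 were alternatives. The methods were tested on simulated data. Named were member differences with an unadjusted p under 0.05, per segment the 3 most used V segments and the 2 pairs furthest above and below expectation, the most widespread and the largest clonotypes, at most 5 called clonotypes per direction, and the 2 most similar segments by Pearson r.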

Additional observations from a re-analysis of the deposited data

Results flagged for a closer look

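In TRBJ2-3, d105 NR replicate 2 held 8.89% of reads, apart from the other 3 NR libraries at 9.62% to 9.76%. The mean CDR3 length of TRBJ2-3 was 14.5 residues in d105 NR replicate 1, below the others at 14.58 to 14.59. Public members held 9.39% of TRBJ2-4 reads in the same library, above the others at 7.98% to 8.15%. These were 3 of 80 groups examined for a library apart, where chance gives about 1 in 20.

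The change of TRBJ2-3 reads with aPD-1 added to PLX+PTX differed between days by 0.266 on the log2 scale (SE 0.0875, adjusted p 0.043, limma), a test added after results were seen. It was 1 of 24 such tests of the 4 segments, 2 of which had an unadjusted p under 0.05. Without d95 PLX+PTX replicate 2 it was 0.162 (SE 0.0841, adjusted p 0.41) and no longer called, and counted once it was 0.00861 (SE 0.0346, adjusted p 0.92).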

How the results depend on the processing

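No paired analysis was possible because replicate numbers were given in accession order and pair no mice. Of 1102 repeats of 56 counts of calls, 1026 stayed within 1.5 times, as did direction and side of the threshold in 883 of 942 repeats of 65 single differences. The cause of the other changes was not tested. Mean percents became 12.8, 9.57 and 9.97 (TRBJ2-1), 8.18, 6.27 and 6.92 (TRBJ2-2) and 11.6, 7.89 and 7.02 (TRBJ2-3) counted once, normalized and as nb clone count, and 9.01 and 9.08 (TRBJ2-4) on the first 2 scales. Calls in reads were 2 with DESeq2 for aPD-1 at d95, and between days 4 on either rescaled count and 1 without a filter. Thinning gave 1 call counted once for PLX3397 at d105. V pairing gave, for R minus NR at d105, 2 calls at a share of at least 0.5%, 0 in reads and 0 thinned, for PLX3397 at d105 1 at 0.5% and 2 thinned, and between days 19 thinned. Shared clonotypes gave, for aPD-1 at d105, 0 at 80% presence, 0 normalized and 0 with a pseudocount of 1, for PLX3397 at d105 4 at 80% and 4 with that pseudocount, and between days 3 and 119. Between days CDR3 length gave 0 calls thinned, and public reads 1 at 80% and 4 as a percent of combinations. Signs turned for TRBJ2-1 reads between days (0.161 nb, 0.204 normalized), TRBV5 TRBJ2-1 (-1.07 in reads, -0.131 normalized), normalized TRBV20 TRBJ2-2 (0.286), TRBV3 TRBJ2-3 (0.267), TRBV24 TRBJ2-3 (-0.294) and TRBV26 TRBJ2-4 (0.00811), CDR3 length between days weighted by reads (-0.114, -0.0462, -0.0823 and -0.0718) and thinned for TRBJ2-3 (-0.00081), and the public percent of TRBJ2-1 minus TRBJ2-4 (-0.0979 at 80%, -0.0634 thinned). With 1 library left out, calls ranged from 0 to 3 (reads, aPD-1 d95), 1 to 2 (reads, days), 0 to 6, 0 to 1 and 0 to 2 (V pairing, R minus NR d105, MMTV-PyMT minus WTNT, aPD-1 d95), 0 to 2, 0 to 5, 0 to 1, 0 to 2 and 30 to 57 (shared clonotypes, aPD-1 d105, PLX3397 d105, R minus NR d95, aPD-1 d95, days), and 0 to 1 for CDR3 length with aPD-1 at d105 and MMTV-PyMT minus WTNT and for public reads with aPD-1 at d105.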
